A study of Mus musculus with 9 samples.

Results

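The 10 genes described here, Camk2a, Ddn, Shank1, Shank2, Shank3, Ppp1r9b, Psd, Dlg2, Dlgap3 and Map2, encode proteins of the postsynaptic side of excitatory synapses and of the dendritic cytoskeleton, and their mRNAs are known for being carried into dendrites. They are 10 of 33964 genes to which the counted transcripts could be assigned. Each gene was represented by 1 transcript, chosen by the highest mean count over the 9 libraries, and all 10 chosen transcripts passed the filter on low counts. Positions are those of the chosen transcripts in GRCm38. The study dissected the 3 layers of piriform cortex, the main olfactory cortex, by laser capture, the cutting of selected areas from frozen sections under a microscope, and sequenced the RNA to find genes that distinguish the layers. The mice were wild type C57BL/6, and all 9 libraries share this strain, genotype and tissue, with no treatment. Their age is 8 weeks in the sample labels and 10 weeks in the methods. Each lettered layer (A, B, C) has 3 replicates. Which numbered layer a letter stands for is not given in the sources used here, so the letters are kept. Nothing states that replicates came from separate mice or whether animals were pooled, and the p-values measure the spread between these libraries, which may be technical.

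Most neuronal mRNAs are translated in the cell body, but a set of them is packaged into granules with RNA-binding proteins and moved along microtubules by kinesin motors into dendrites, where it can be translated near synapses. Sequences in the 3′ untranslated region (UTR) usually direct this transport. In piriform cortex the dendrites of pyramidal and semilunar cells extend into a superficial layer with few neuronal cell bodies, so RNA in dissected layers can come from cell bodies, from their processes and from glia.

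Elements of the 3′ UTR are shown first, because they are the known sites at which such mRNAs are held silent or activated. The cytoplasmic polyadenylation element (CPE), searched as TTTTAT or TTTTAAT, is bound by CPEB proteins, and the Pumilio element, searched as TGTANATA, is bound by repressors of the Pumilio family. Only the mRNA strand was searched, and TTTTAAT can overlap the poly(A) signal AATAAA. The last 200 bases of the 3′ UTR held a CPE in 1 of the 9 chosen transcripts with a 3′ UTR of that length (11.1%), Dlg2, and in 29.9% of 11305 transcripts taken by the same rule from all coding genes. A Pumilio element was found there in 2 of the 9 (22.2%), Ddn and Ppp1r9b, and in 8.48% of all 11305. Over the whole 3′ UTR the order was the other way, at 0.161 Pumilio elements per kb in the 9 and 0.246 per kb in the 11305. The 4 sites below are the ones nearest the 3′ end of Dlg2, Map2, Ddn and Ppp1r9b, read from the GENCODE transcripts of GRCm38, with the motif in capitals.
Dlg2 CPE: ttagcactgattTTTTATgtagatttatat
Map2 CPE: taattgttacaaTTTTATataaaaaattaa
Ddn Pumilio element: taatgaggtaaTGTATATAaggcgtcttgc
Ppp1r9b Pumilio element: gaccccgtctcTGTATATAatatatatatg
All 4 lie in 3′ UTRs. The Dlg2 site is at chr7:92446957-92446986 on the plus strand, with 29 bases between the motif and the end of the transcript. The Map2 site is at chr1:66439131-66439160, plus strand, with 40 bases after it, in the chosen Map2 transcript, whose 3′ UTR has only 181 bases. In a Map2 transcript with a 3′ UTR of 3574 bases the same site has 3433 bases after it. That transcript has 5 CPEs and none in its last 200 bases. The Ddn site is at chr15:98803830-98803859, minus strand, and the Ppp1r9b site at chr11:95006798-95006827, plus strand, with 64 and 83 bases after the motif. Camk2a, whose CPEs are among the best studied, had 1 CPE in the 3372 bases of its 3′ UTR and none in the last 200 bases. Shank1, Psd, Ddn and Ppp1r9b had no CPE, Shank2 and Dlgap3 had 1 and Shank3 had 2, all farther from the end. A match is a description of these letters and not of a bound site.

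The 10 transcripts were long and rich in G and C. Their length ranged from 3745 to 9826 bases with a median of 5124, against 3223 bases for the highest tested transcript of all 12585 coding genes. Their median 3′ UTR had 1739.5 bases, against 1151 over all coding genes and 1259.5 over 14 mRNAs that are thought to stay in neuronal cell bodies. Their median GC content was 60.6%, against 50.1% over all coding genes, with Dlg2 (43.8%) and Map2 (47.8%) at the low end and Dlgap3 (63.9%) at the high end. Over the 12585 coding genes, 14.5% of transcripts were called higher in layer A than in B, against 17.8% of the 5021 at least as long as the shortest of the 10 (median log2 difference, A minus B, of -0.01) and 10.3% of the 629 with at least 60% GC (median of -0.19).

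Total counts ranged from 23104306 to 76471683 per library, and the detection floor of 3 counts equals 0.0256 to 0.254 normalised CPM, that is, counts scaled to a common library size. The smallest count of any of the 10 transcripts was 94 reads, for Dlgap3 in layer C replicate 2. The 2 mitochondrial ribosomal RNAs took 55.3 to 70.2% of the layer A counts, 12.8 to 28.1% of those of layer B and 20.5 to 57.1% of those of layer C, and layer B replicate 3 stood apart from the other layer B libraries in many of the values below. Astrocyte markers (6 genes) summed to 842 to 1382 CPM across the layer A libraries, to 69.1 to 194 across layer B and to 134 to 180 across layer C. Vascular and meningeal markers (7 genes) summed to 95.5 to 149, 4.605 to 14.1 and 11.3 to 16.1 CPM, and microglia markers (6 genes) to 91.3 to 108, 14.2 to 32.95 and 32.5 to 45.9 CPM. Excitatory neuron markers (5 genes) summed to 95.9 to 184 CPM in A, 256 to 398 in B and 181 to 309 in C. Of the neuronal markers, Pvalb was at 0 in layer A replicate 1, and Neurod6 and Pvalb were at or under the floor of 3 counts in layer A replicate 2. Neurod6 was also under it in layer A replicate 1, and the other neuronal markers were above it in all 9 libraries. The astrocyte, vascular and microglia sums were higher in every layer A library than in the others, and the excitatory sum was lower in A than in every layer B library but overlapped with C. Their part in the results below was not tested. In tissue libraries of this kind fewer cells of a type and less RNA per cell cannot be told apart.

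Layer A held more than layer B of most of these mRNAs. Of the 10, 6 were higher in layer A (Camk2a, Ddn, Shank1, Ppp1r9b, Psd and Dlg2), by 2.16 to 3.78-fold, and none was lower, by the quasi-likelihood test of edgeR, with p-values adjusted after Benjamini and Hochberg across all 56416 tested transcripts. Of all tested transcripts, 10.7% were called higher and 5.83% lower in layer A. The fold change of all 10 was above 0, with a median log2 of 1.41, where the median of all tested transcripts was -0.12. In 7 of the 10, every layer A library was above every layer B library, which held for 17.2% of all tested transcripts. The 10 genes were chosen with earlier results of these data known, so these counts, and those against layer C below, are a description.

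Between layers A and C, 5 mRNAs were higher in layer A (Camk2a, Ddn, Shank1, Ppp1r9b and Psd), by 2.07 to 2.65-fold, and none was lower, against a background of 6.98% called higher and 4.35% called lower. The median log2 fold change was 1.09, where all tested transcripts had -0.01, and 6 of the 10 did not overlap between the layers, against 17% of all. Both comparisons use the same layer A libraries. The count against layer C changed when single libraries were left out. It was 0 without layer C replicate 1, 2 without layer A replicate 1 and 2 without layer C replicate 2. Without layer C replicate 3 it was 2, and without layer A replicate 2 it was 3. Calls over all tested transcripts fell as well, from 3937 higher in A to 910, 1822, 2452, 2921 and 2334 in the same order. Between layers B and C, 0 of the 10 and 0% of all tested transcripts passed in edgeR's quasi-likelihood test, while 1 of the 10 (Shank1) and 2316 transcripts had an unadjusted p under 0.05. DESeq2 also called 0 of the 10 there, and over all transcripts 29 higher and 101 lower in B.

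**Figure D1:**
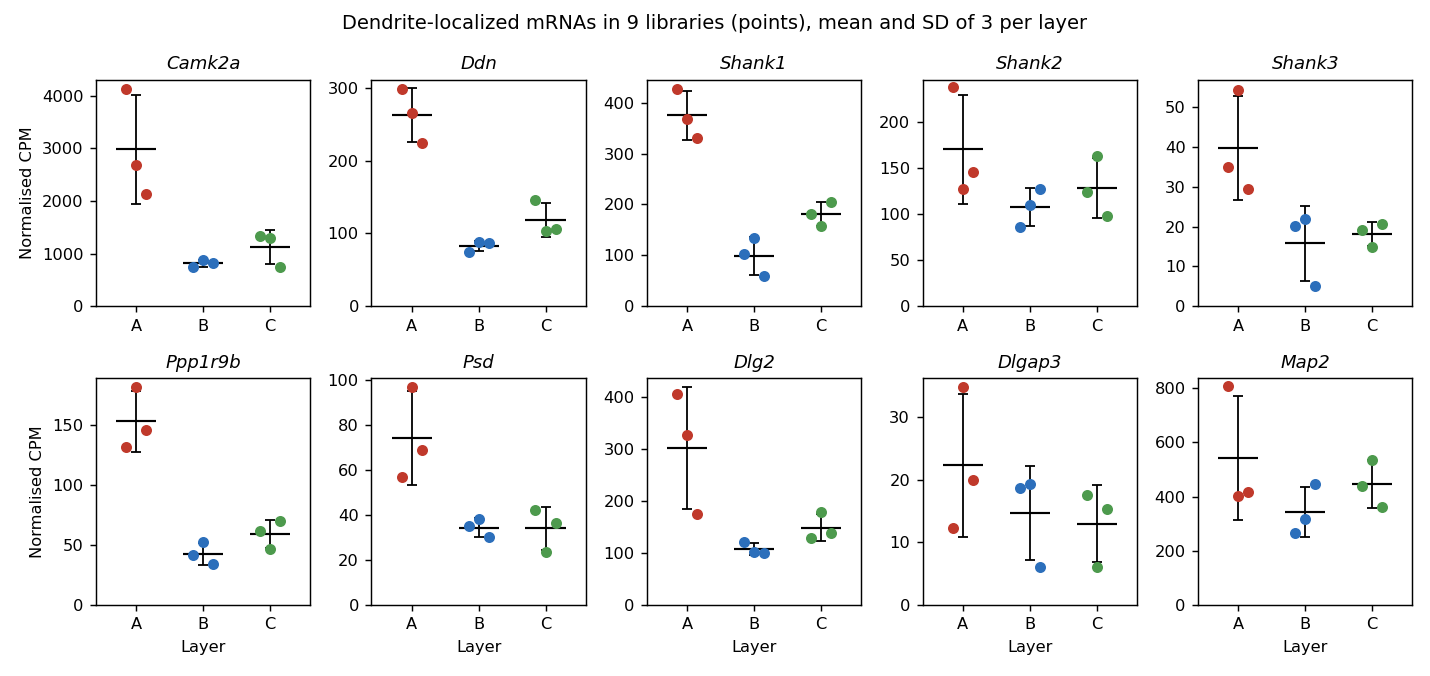
Normalised CPM (vertical axes, from 0) of the chosen transcript of each of the 10 genes in the 9 libraries, by layer; points are libraries, bars the mean and SD of 3. Layer A lies above layer B without overlap for Camk2a, Ddn, Shank1, Shank3, Ppp1r9b, Psd and Dlg2, while Shank2, Dlgap3 and Map2 overlap.

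Camk2a (ENSMUST00000102888) encodes the alpha subunit of calcium/calmodulin-dependent protein kinase II, the abundant kinase of the postsynaptic density that is needed for synaptic potentiation. Its level was 4131, 2672 and 2127 CPM in layer A, 740, 882 and 814 CPM in layer B and 1325, 1289 and 751 CPM in layer C, in replicates 1, 2 and 3. All 3 layer A libraries were above the 6 others, and replicate 1 was the highest. The level in layer A was 3.67-fold that in layer B (log2 1.87 ± 0.33, SE, adjusted p = 0.0016, edgeR) and 2.65-fold that in layer C (1.41 ± 0.33, adjusted p = 0.0135). The call against layer B held in all 18 alternatives, and the call against layer C was lost without layer A replicate 1 (log2 1.10), without layer C replicate 1 (1.54) or without layer C replicate 3 (1.21).

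Ddn (ENSMUST00000075444, chr15:98803777-98807925, minus strand) encodes dendrin, a proline-rich protein of dendrites and spines. It had 298, 265 and 224 CPM in layer A, 74.7, 87.9 and 86.2 CPM in layer B and 145, 103 and 106 CPM in layer C. The layers did not overlap, and the spread within each was small. Ddn was 3.17-fold higher in layer A than in B (log2 1.66 ± 0.28, SE, adjusted p = 0.0011, edgeR) and 2.22-fold higher than in C (1.15 ± 0.27, adjusted p = 0.0143). The latter call was lost without layer A replicate 1 (log2 1.05), layer C replicate 1 (1.33) or layer C replicate 2 (1.07). Ddn had 1 annotated transcript among those counted, so its count is free of the overlap between isoforms described below.

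The Shank genes encode large scaffold proteins that link receptor complexes to the actin cytoskeleton. Of their 3 chosen transcripts only that of Shank1 passed the test in layer A against B. Shank1 (ENSMUST00000107938, chr7:44310253-44360572, plus strand) had 427, 368 and 330 CPM in layer A, 103, 134 and 60.2 CPM in layer B and 181, 157 and 204 CPM in layer C. It showed the largest fold change of the 10 against layer B, 3.78-fold (log2 1.92 ± 0.32, SE, adjusted p = 0.0011, edgeR). The level against layer C was 2.07-fold (1.05 ± 0.31, adjusted p = 0.0403), and this call was the least stable of the 5: it held in 10 of 18 alternatives. It was lost with the counts of all transcripts summed by gene (log2 0.96), with the replicate number as a block (1.03) and without any one of layer A replicate 1 (0.95), layer A replicate 2 (1.07), layer B replicate 1 (1.06), layer C replicate 1 (1.05), layer C replicate 2 (0.96) or layer C replicate 3 (1.17). Between layers B and C Shank1 had a log2 fold change of -0.87 ± 0.31 and an adjusted p of 0.936 in edgeR.

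Shank3 (ENSMUST00000109309, chr15:89499623-89560261, plus strand) had 35.1, 54.5 and 29.5 CPM in layer A, 20.3, 22.03 and 4.996 CPM in layer B and 19.0, 14.8 and 20.6 CPM in layer C. The lowest layer A library was above the highest of the other layers, but layer B replicate 3 was far below its group. The log2 fold change was 1.33 ± 0.45 against B (adjusted p = 0.0532, edgeR) and 1.13 ± 0.44 against C (adjusted p = 0.123), and neither passed the threshold. The comparison with layer B passed in 7 of 18 alternatives, among them without layer B replicate 3 (log2 0.96) and without layer B replicate 2 (1.69), and the comparison with layer C passed in 2 of 18, without layer B replicate 3 (1.13) and with only the 6 libraries compared (1.14). Shank2 (ENSMUST00000105900, chr7:144175529-144424494, plus strand) had 238, 127 and 145 CPM in layer A, 85.4, 109 and 127 CPM in layer B and 124, 163 and 97.2 CPM in layer C. Only layer A replicate 1 lay above all libraries of the other layers. Its log2 fold changes, 0.66 ± 0.32 against B and 0.41 ± 0.32 against C, did not pass (adjusted p = 0.18 and 0.485, edgeR), in the main fit or in any of the 18 alternatives.

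Ppp1r9b (ENSMUST00000038696, chr11:94991035-95006899, plus strand) encodes spinophilin, which anchors protein phosphatase 1 in dendritic spines. Its level was 131, 181 and 146 CPM in layer A, 41.2, 52.5 and 33.9 CPM in layer B and 61.1, 46.4 and 69.9 CPM in layer C. No library of layer B or C came near those of layer A. The fold changes were 3.59 against B (log2 1.84 ± 0.30, SE, adjusted p = 0.000878, edgeR) and 2.58 against C (1.37 ± 0.29, adjusted p = 0.0091), and both adjusted p-values were the smallest among the 10. The call against B held in 18 of 18 alternatives and that against C in 17, with the loss without layer C replicate 1 (log2 1.39).

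Psd (ENSMUST00000041391, chr19:46312087-46327156, minus strand) encodes an exchange factor for the small GTPase Arf6 at the postsynaptic density. It had 56.6, 97.1 and 68.9 CPM in layer A, 34.9, 38.3 and 29.97 CPM in layer B and 42.2, 23.5 and 36.2 CPM in layer C. Layers B and C overlapped, and both lay below layer A. Psd was 2.16-fold higher in A than in B (log2 1.11 ± 0.31, SE, adjusted p = 0.0229, edgeR) and 2.18-fold higher than in C (1.13 ± 0.31, adjusted p = 0.0295). The call against B was lost without layer A replicate 2 (log2 0.88) or layer B replicate 1 (1.17), and the call against C without layer A replicate 2 (0.89) or any one of layer C replicates 1 (1.31), 2 (0.92) and 3 (1.203).

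Dlg2 (ENSMUST00000074273, chr7:91090728-92447003, plus strand) encodes PSD-93, a scaffold of the PSD-95 family that binds NMDA receptors and potassium channels, and Dlgap3 (ENSMUST00000106094, chr4:127172880-127237022, plus strand) encodes SAPAP3, which links that family to the Shank proteins. Dlg2 had 407, 327 and 174 CPM in layer A, 120, 102 and 99.98 CPM in layer B and 130, 178 and 138 CPM in layer C. Layer A replicate 3 lay above layer B but just below the highest layer C library. Dlg2 was 2.82-fold higher in A than in B (log2 1.49 ± 0.32, SE, adjusted p = 0.0054, edgeR), in 18 of 18 alternatives. The comparison with C sat at the threshold (log2 1.02 ± 0.32, adjusted p = 0.050003, edgeR), and it passed in 8 of 18 alternatives, among them without layer A replicate 3 (1.32) and without layer B replicate 3 (1.03).

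Dlgap3 was the least abundant, with 12.2, 34.7 and 19.9 CPM in layer A, 18.7, 19.3 and 6.08 CPM in layer B and 17.5, 5.996 and 15.4 CPM in layer C. Its layers overlapped, and the log2 fold changes of 0.60 ± 0.49 against B and 0.77 ± 0.49 against C did not pass (adjusted p = 0.46 and 0.375, edgeR). Map2 (ENSMUST00000114013, chr1:66321719-66439188, plus strand) encodes the microtubule-associated protein of dendrites, a standard marker of dendritic shafts. It had 809, 402 and 417 CPM in layer A, 267, 316 and 448 CPM in layer B and 439, 537 and 362 CPM in layer C. Layer A replicate 1 was the highest and the others were mixed, with log2 fold changes of 0.66 ± 0.33 against B and 0.28 ± 0.33 against C (adjusted p = 0.209 and 0.676, edgeR). Without layer A replicate 1 the difference of Map2 from layer C was -0.12.

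Per kilobase of transcript, Camk2a was the most abundant of the 10 in every layer, at 599 ± 209 CPM per kb in A, 163 ± 14.3 in B and 226 ± 64.6 in C (SD, n = 3). Map2, Ddn and Dlg2 followed in layer A at 86.7 ± 36.9, 70.1 ± 9.91 and 57.3 ± 22.4 CPM per kb, and they came in the same order in layers B and C. Shank1 (38.2 ± 4.95), Ppp1r9b (33.9 ± 5.71), Shank2 (20.8 ± 7.29) and Psd (19.0 ± 5.31) came next in layer A, and Shank3 (5.39 ± 1.78) and Dlgap3 (5.30 ± 2.72) were lowest. Among neighbours in this order, the SD intervals were apart only between Camk2a and Map2, between Ppp1r9b and Shank2 and between Psd and Shank3. In layer B, Shank2 (13.1 ± 2.55 CPM per kb) stood above Shank1 (10.1 ± 3.79), with overlapping intervals.

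No annotated transcript of these genes was called in the other direction. Of 68 tested transcripts of the 10 genes, 58 of them not chosen by the rule, 24 were called higher in layer A than in B and 13 higher than in C, and none lower. Over all tested transcripts, 10.7% were called higher and 5.83% lower in A than in B, and 6.98% and 4.35% against C. Fold changes of single transcripts reached down to a log2 of -0.21 against B and -0.45 against C, both in Shank2. These counts are not independent, since overlapping transcripts share reads: the second transcript of Shank2, Shank3, Dlg2 and Dlgap3 had 99.2 to 100% of the count of the chosen one, and that of Ppp1r9b and Psd 96.6% and 91.8%. It had 64.6% for Camk2a, 61.4% for Shank1 and 64.4% for Map2, genes for which transcripts could be told apart in part. In Map2 the transcript with a 3′ UTR of 3574 bases and a short coding sequence had 0.449, 1.01 and 0.678 times the count of the chosen transcript in layer A, 0.770, 0.559 and 0.719 times in layer B and 0.463, 0.451 and 0.690 times in layer C. In Camk2a the transcript with a 3′ UTR of 1627 bases had 0.813, 0.543 and 0.687 times the count of the chosen one in A, 0.539, 0.546 and 0.725 times in B and 0.704, 0.776 and 0.546 times in C. In both genes the ratios overlapped between the layers, and the genes shown for this were picked after their counts were seen.

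A list of 14 neuronal mRNAs that are thought to stay mostly in the cell body moved the other way. Where in the cell they lie was not measured here. Of these, 12 were lower in layer A than in B (5.83% of all tested transcripts were), none was higher, and the median log2 fold change was -1.55. Uchl1, a neuronal ubiquitin hydrolase, fell by 2.24 on the log2 scale (adjusted p = 0.0185, edgeR), and Nefm, the medium neurofilament subunit, fell by 2.13 (adjusted p = 0.0317). Slc17a7, the vesicular glutamate transporter of cortical neurons (log2 -1.10 ± 0.36, adjusted p = 0.0504), and Nefl, the light neurofilament subunit (-0.59 ± 0.42, adjusted p = 0.392), did not pass. Against layer C, 10 of the 14 were lower (4.35% of all tested transcripts were) and none higher, with a median of -1.44. Without layer A replicate 2 the count against B was 6, and the count against C was 3 without layer A replicate 1, 2 without layer A replicate 2, 2 without layer C replicate 1 and 6 without layer C replicate 2. This list was assembled with earlier results of these data known, so its direction is a description.

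**Figure D2:**
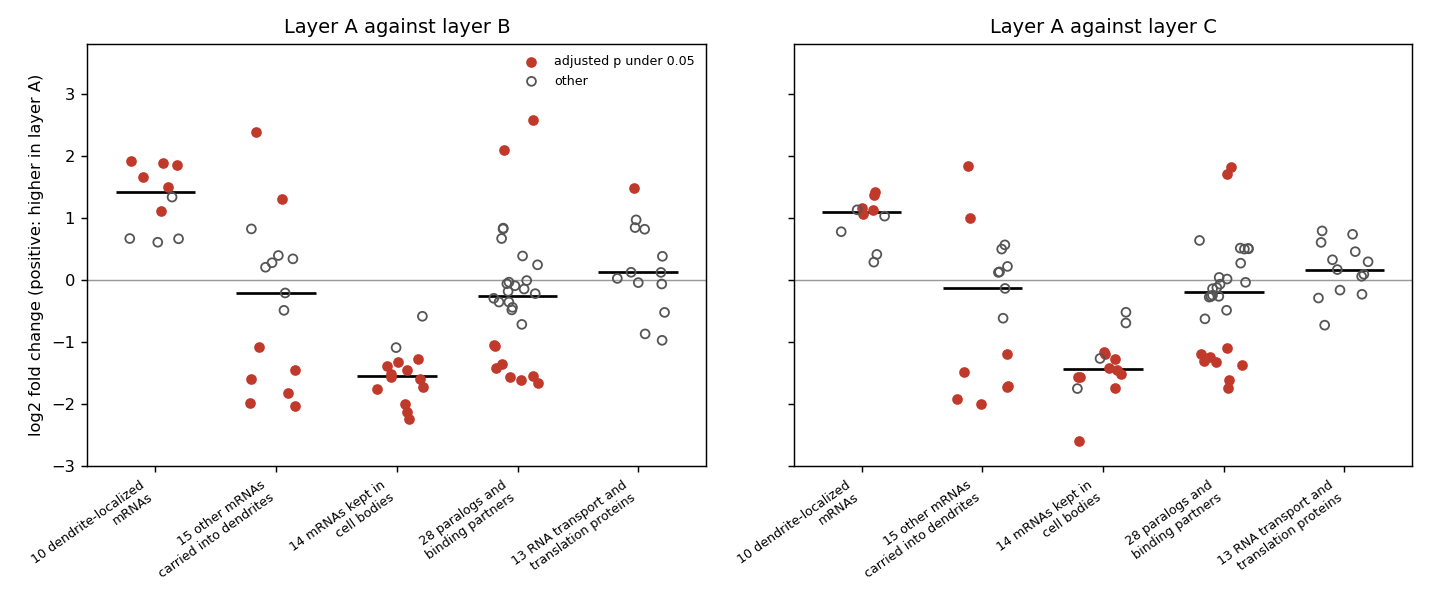
Log2 fold change of the chosen transcript of each gene, layer A against B (left) and against C (right), for the 10 dendrite-localized mRNAs and 4 other lists; filled points passed an adjusted p under 0.05 and lines are list medians. The 10 mRNAs lie above 0 in both comparisons and the 14 cell-body mRNAs below 0, while the other lists lie on both sides.

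Within each library the 10 mRNAs were set against the mean log2 CPM of those 14 cell-body mRNAs, a measure that does not depend on library scaling beyond the 0.1 CPM added before the logarithm. That mean was itself lower in layer A, at 5.46, 5.41 and 6.15 in layer A, 6.94, 6.84 and 7.77 in layer B and 7.27, 6.92 and 7.12 in layer C. On this scale all 10 had every layer A library above those of layers B and C, but so did 61.1% of all tested transcripts against B and 64.7% against C, so the separation by itself is not particular to the 10. For Camk2a the relative level was 6.55, 5.97 and 4.91 in layer A, 2.59, 2.95 and 1.90 in layer B and 3.10, 3.41 and 2.43 in layer C, in log2 units. For Map2 it was 4.198, 3.24 and 2.55 in layer A, 1.12, 1.46 and 1.03 in layer B and 1.51, 2.14 and 1.37 in layer C. Map2 overlapped between layers on the CPM scale, and its separation here includes the fall of the reference. The difference between layers A and B ranged from 2.13 (Map2) to 3.50 (Shank1) and between A and C from 1.65 (Map2) to 2.83 (Camk2a). Each of these 20 comparisons gave p = 0.1 in a two-sided exact permutation test, the smallest that 3 against 3 libraries allow, and 0.1 after Benjamini-Hochberg adjustment over the 20. They share 1 reference, assembled with earlier results known, and its fall is part of every difference.

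**Figure D3:**
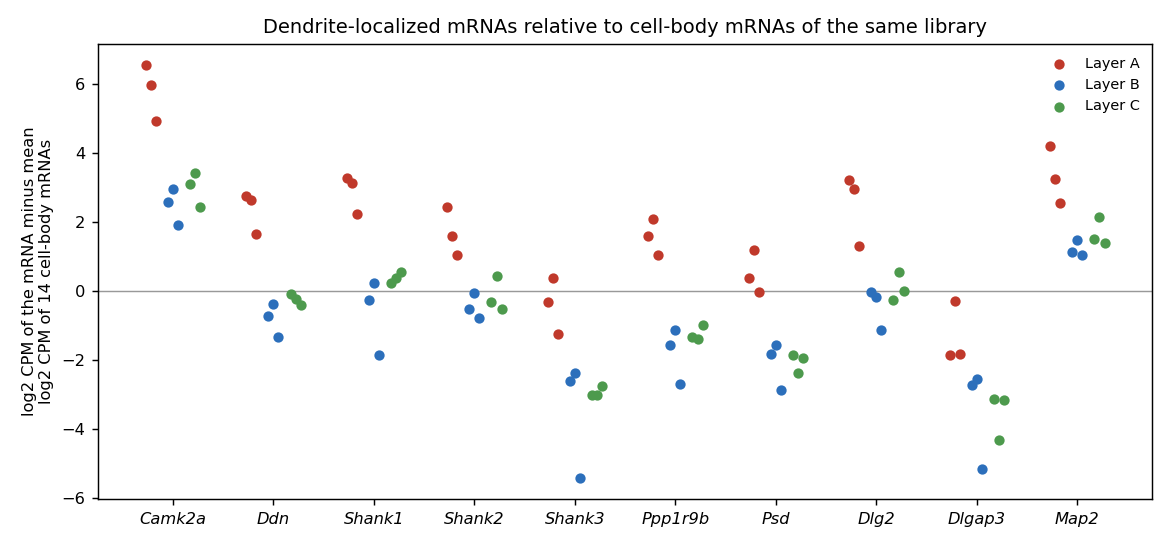
Log2 CPM of each dendrite-localized mRNA minus the mean log2 CPM of 14 cell-body mRNAs of the same library (vertical axis), with 1 point per library and colours for the layers. In all 10 genes the 3 layer A points lie above the 6 others, on a scale where 61.1% of all tested transcripts did so against B.

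Comparison with a paralog separates members of the same protein family. Camk2b encodes the beta subunit of the same kinase, and its mRNA is known to stay in the cell body. It was lower in layer A, at 52.1 ± 23.7 CPM (SD, n = 3) against 155 ± 3.60 in B and 119.5 ± 23.8 in C (adjusted p = 0.0048 and 0.0287, edgeR). The log2 ratio of Camk2a to Camk2b was 7.01, 5.85 and 4.76 in layer A, 2.26, 2.55 and 2.36 in layer B and 3.30, 3.81 and 2.50 in layer C. The ratio was 11.2-fold higher in A than in B and 6.36-fold higher than in C, and no layer A library overlapped another layer.

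Ppp1r9a encodes neurabin, the relative of spinophilin, and it was lower in layer A (log2 -1.06 ± 0.27 against B, adjusted p = 0.0126, edgeR) where Ppp1r9b was higher. Their ratio, Ppp1r9b to Ppp1r9a, was 0.58, 1.21 and 0.99 in layer A, -1.99, -1.47 and -2.48 in layer B and -1.48, -2.09 and -1.06 in layer C, in log2 units. Its sign turned between layers: Ppp1r9b had the higher CPM in all 3 layer A libraries and Ppp1r9a in all 6 others. Dlg3, which encodes SAP102, another scaffold of the PSD-95 family, was likewise lower in layer A (log2 -1.67 ± 0.32 against B, adjusted p = 0.0024, edgeR), and the ratio of Dlg2 to Dlg3 was 3.06 log2 units higher in A than in B and 2.22 higher than in C, with no overlap. The Dlg3 transcript used has no annotated coding sequence. Some other relatives in these families were not called against B. Dlg4, which encodes PSD-95, had a log2 fold change of 0.82 (adjusted p = 0.173, edgeR). Those of Dlg1 and Camk2g were -0.49 and -0.19 (adjusted p = 0.257 and 0.729, edgeR). The paralogs that fell thus do not stand for every relative.

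Mapt encodes tau, the axonal relative of MAP2. The ratio of Map2 to Mapt was 1.34 log2 units higher in A than in B and 0.85 higher than in C, with no overlap. The chosen transcript of neither gene passed its own test, and that of Mapt had log2 fold changes of -0.72 against B and -0.63 against C. Of the 12 tested Mapt transcripts, 6 were called lower in A than in B and 0 lower than in C. The lower level of Mapt is part of this ratio. The ratios of Dlgap3 to Dlgap1 and of Psd to Psd3 overlapped between layers, at 0.82 and 0.27 log2 units between A and B (p = 0.4 and 0.5, exact permutation test) and 1.07 and 0.67 between A and C (p = 0.3 and 0.3). Without layer B replicate 3 the Psd to Psd3 difference between A and B was -0.023. Psd3 had 391 ± 124 CPM in A and 219.6 ± 55.8 in B (SD, n = 3), which did not pass (adjusted p = 0.0832, edgeR). For Psd3 this holds for the chosen transcript, while 3 of its 9 tested transcripts were called higher in A than in B and 1 higher than in C. Of the 12 ratio comparisons, 8 had no overlap, each with p = 0.1 in the two-sided exact permutation test, the smallest this design allows, and 0.15 after adjustment over the 12. The share without overlap among other gene pairs was not computed, and these genes were chosen with earlier results known. Camk2b, Ppp1r9a and Dlg3 were themselves lower in layer A, and their fall is part of the ratios. The 8 are therefore a description.

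**Figure D4:**
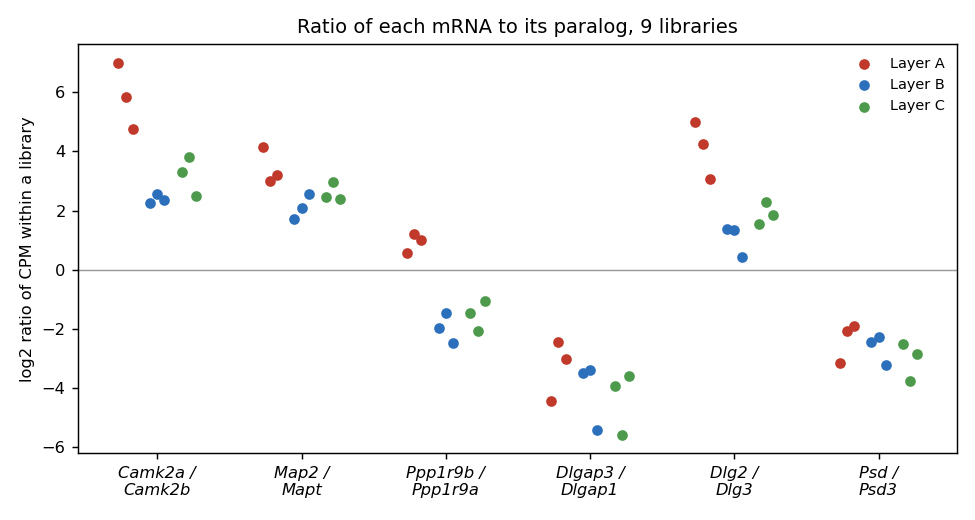
Log2 ratio of the CPM of each dendrite-localized mRNA to that of a related gene within each of the 9 libraries (vertical axis), coloured by layer. Layer A lies above both other layers for Camk2a to Camk2b, Map2 to Mapt, Ppp1r9b to Ppp1r9a and Dlg2 to Dlg3, and overlaps them for Dlgap3 to Dlgap1 and Psd to Psd3.

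In the wider list of 28 paralogs and binding partners of the 10 proteins, 2 were higher and 8 lower in layer A against B, with the same counts against C. Over all tested transcripts 10.7% were called higher and 5.83% lower against B, and 6.98% and 4.35% against C. The 2 higher ones of the list were Psd2, a second Arf6 exchange factor (log2 2.58 ± 0.36 against B, adjusted p = 0.000369, edgeR), and Homer2, a scaffold that binds Shank proteins (2.10 ± 0.37, adjusted p = 0.0016). Homer1, of the same family, was lower (-1.55 ± 0.35, adjusted p = 0.0066), and so was Camk2d, the delta subunit of the kinase (-1.61, adjusted p = 0.0032). Homer2 and Homer1 thus moved in opposite directions, as Ppp1r9b and Ppp1r9a did. Single libraries moved these counts. Against B, 5 were higher without layer B replicate 3 and 5 lower without layer A replicate 2, and 4 were higher with counts summed by gene. Against C, the higher and lower counts were 1 and 3 without layer A replicate 1, 1 and 2 without layer C replicate 1, while 3 were lower without layer A replicate 2 and 4 without layer C replicate 2.

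A second list of 15 mRNAs that are carried into dendrites did not share the direction of the 10. In layer A against B, 2 were higher and 6 lower, at a median of -0.21 on the log2 scale, and against C the counts were again 2 and 6, with a median of -0.14. The number higher against B was near the share over all tested transcripts, of which 10.7% were called higher and 5.83% lower. Against C those shares were 6.98% and 4.35%. Ntrk2, the gene of the receptor for brain-derived neurotrophic factor, rose by 2.39 ± 0.33 on the log2 scale against B (adjusted p = 0.00034, edgeR). This was in the transcript with a coding sequence of 1428 bases. Whether that transcript encodes the whole receptor, and which cells it came from, was not tested. The other tested Ntrk2 transcript, with 64.7% of the count of the first, had log2 fold changes of -0.15 against B and -0.32 against C and was not called. Eef2, an elongation factor of translation, rose by 1.31 ± 0.26 (adjusted p = 0.0037). Among the lower ones, Nrgn, which encodes the calmodulin-binding protein neurogranin, fell by 2.04 (adjusted p = 0.0243) and Bdnf, the neurotrophin, by 1.99 (adjusted p = 0.0017). The genes of the glutamate receptor subunits Grin1, Gria1 and Gria2 and of the potassium channel Kcna1 were lower too, with log2 fold changes of -1.83, -1.08, -1.46 and -1.60. Against C, 1 of the 15 was higher without any one of layer A replicates 1 and 2 and layer C replicates 1, 2 and 3, and 3 were lower without layer C replicate 1.

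Of 13 genes for proteins that carry these mRNAs or control their translation, 1 was higher in layer A than in B (10.7% of all tested transcripts were), none was lower (5.83%), and none passed against C. That gene was Kif5a, a kinesin heavy chain that moves RNA granules, at 751 ± 229 CPM in A, 269.6 ± 97.8 in B and 549 ± 97.5 in C (SD, n = 3) (log2 1.48 ± 0.33 against B, adjusted p = 0.0065, and 0.45 ± 0.32 against C, adjusted p = 0.443, edgeR). Without layer A replicate 3 or without layer B replicate 3 the count against B was 3. Eif4ebp2, an inhibitor of cap-dependent translation (log2 0.96 ± 0.44), Pum2, of the Pumilio family (0.84 ± 0.35), Cpeb1, which binds CPEs (-0.87 ± 0.33), and Eif4e, the cap-binding factor (-0.98 ± 0.54), did not pass against B (adjusted p = 0.155, 0.117, 0.0867 and 0.252, edgeR). None of the 3 nuclear neuronal RNAs that could be matched, of 4 listed, passed: Malat1 had a log2 fold change against B of 0.76, Meg3 of -0.61 and Snhg11 of -0.82.

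Glial and vascular genes moved with the 10 mRNAs. All 6 astrocyte markers were higher in layer A in both comparisons, with a median log2 fold change of 3.20 against B and 2.87 against C, from S100b (2.44 against B) and Aldh1l1 (2.78) through Slc1a3 (3.08), Gja1 (3.32) and Aqp4 (4.01) to Gfap (4.29). All 7 vascular and meningeal markers were higher against B and 6 of 7 against C, with Igf2 (4.97) and Lum (4.14) the largest and Cldn5 (2.57) and Pdgfrb (3.20) the smallest against B. Of the microglia markers P2ry12 (2.73), Cx3cr1 (2.27), C1qb (2.07) and Csf1r (2.06) were higher against B and against C, while C1qa (3.02) and Aif1 (1.77) did not pass. Of 6 oligodendrocyte markers, Cnp was higher against B (1.63) and none passed against C, with Mbp (0.79), Mag (1.08), Mog (1.30) and Mobp (1.40) not passing against B. Against B, each of the astrocyte and vascular markers had a larger fold change than Shank1 (1.92), the largest of the 10 mRNAs.

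Excitatory markers did not rise with the 10 mRNAs, and inhibitory markers went both ways. The inhibitory markers (6 genes) summed to 187 to 344 CPM in A, 52.6 to 280 in B and 168 to 270 in C, with overlap. Among the 5 excitatory markers, Neurod2 (log2 -1.62) and Tbr1 (-1.06) were lower in A than in B, while Neurod6 (-2.17) and Slc17a7 did not pass, and Neurod6 (-3.67) and Neurod2 (-1.29) were lower than in C. Among the inhibitory markers Gad2 was higher in A than in B (1.91), Sst was lower than in C (-3.62), and Gad1 (0.53), Slc32a1 (0.76), Vip (-1.65), Sst (-2.42) and Pvalb (-2.47) did not pass against B. For Gad1 this holds for the chosen transcript, while 5 of its 8 tested transcripts were called higher in A than in B. The labelled tissue, cortex with excitatory and inhibitory neurons, was thus represented by most of its markers in all layers, at the lowest summed excitatory level in layer A.

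The 10 mRNAs varied in how closely each followed the mean standardised log2 CPM of the group over the 9 libraries. As a description over libraries that share scaling, and with each gene part of the mean, Pearson's r was 0.98 for Ddn, 0.96 for Camk2a, 0.95 for Shank1 and Ppp1r9b, 0.92 for Dlg2, 0.84 for Psd and 0.82 for Shank3. It was 0.64 for Shank2, 0.56 for Map2 and 0.48 for Dlgap3. Among 4409 other genes with at least 10 CPM on average, the 5 whose pattern was most like that mean were Utp14b (r = 0.99), Nwd1, 2310022B05Rik, Slc6a11, which encodes a GABA transporter of astrocytes, and Arhgef26 (r = 0.98 for the others). Nwd1 had 109 ± 24.8 CPM in A, 9.996 ± 2.08 in B and 18.5 ± 3.07 in C (SD, n = 3), and Slc6a11 had 67.6 ± 11.5, 13.8 ± 1.83 and 21.1 ± 4.01 CPM. All 5 were called higher in layer A in both comparisons, and their log2 fold changes against B were 2.29 (Slc6a11) to 3.45 (Nwd1), above those of the 10 mRNAs themselves.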

How the data were processed

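RNA of laser-captured piriform cortex layers A, B and C was measured in 9 libraries, 3 per layer, grouped by the sample labels. The authors extracted RNA with the RNeasy Micro Kit, amplified it with the Ovation system, prepared libraries that do not keep strand, and aligned reads to mm10 with Bowtie. The submitters' processing notes also list HTSeq 0.5.3 and bcl2fastq 1.8.4. The deposited values are raw counts of reads per Ensembl transcript, with no normalization. The Ensembl release and the handling of reads shared by overlapping transcripts or paralogs are not given in the sources used here. Amplified reads without molecular identifiers are not independent molecules, so counting floors cover counting error only.

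Of 95533 transcript identifiers, 82807 (86.7%) were found in GENCODE M21 (GRCm38, the assembly of mm10). A transcript was kept if 3 or more libraries held 10 or more counts of it (56416). After TMM normalization, edgeR (version 4.0.16, under R 4.3.3) fitted all 9 libraries without a covariate, and quasi-likelihood p-values were adjusted by Benjamini-Hochberg over all kept transcripts, with a threshold of 0.05. CPM are TMM-normalised. The script was tested on simulated counts. Ratios within a library used log2(CPM + 0.1) and an exact permutation test. Alternatives were DESeq2 1.42.0 (test or size factors), other filters, the replicate block, only the 6 libraries compared, gene sums, libraries without mitochondrial transcripts, each library left out, and, chosen after seeing the data, only the highest transcript of each gene.

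The text names the 10 genes, the genes of the paralog ratios, up to 2 genes with the largest and 2 with the smallest fold change between layers A and B in each other list, the genes of lists of up to 6 (some marker genes are not reported here), and the 5 genes with the most similar pattern. Pum2 and the other genes named among those that passed (Homer1, Grin1, Gria1, Gria2, Kcna1) were chosen after their values were seen. So were Dlg1, Dlg4 and Camk2g, which did not pass. Members and lists were chosen with earlier results of these data known.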

Additional observations from a re-analysis of the deposited data

How the results depend on the processing

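For the 10 mRNAs, the count called higher in layer A than in B was 5 to 7 in every alternative, and 0 passed between layers B and C in every alternative. The count against layer C was 5, and 4 to 6 in the alternatives that kept all libraries, 7 with only the 6 libraries compared, and 0 to 7 with 1 library left out. The direction of all 10 against B held in every alternative, and against C it held except for Map2 without layer A replicate 1 (log2 -0.12). With 1 library left out, that Map2 value ran from -0.12 to 0.46, and the Psd to Psd3 difference between A and B from -0.023 (without layer B replicate 3) to 0.66. The cause of these changes was not tested. DESeq2 called 7 of the 10 higher against B and 6 against C.

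With the replicate number as a block, 7 of the 10 were higher against B, 4 against C and 0 differed between B and C. Of 9 pairs of libraries with the same number, 4 had deviations correlated over 0.1 (r from -0.19 to 0.24), and r ran from -0.37 to 0.39 in pairs with different numbers. No pairing was assumed in the main fit. With deviations from means of 3, these values cannot show that libraries of 1 number share nothing else. Replicate 3 had the largest total count in each layer. Leaving out mitochondrial transcripts gave 7 and 6. The least abundant mRNAs, Dlgap3 and Shank3, had the largest standard errors, and counts of overlapping isoforms limit what can be said of single transcripts.

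Over all transcripts, 6039 were higher and 3290 lower in A than in B, and 3937 and 2452 against C. Without layer A replicate 1 these were 4080 and 1490, and 1822 and 905. The counts against B were 3942 and 1817 without layer B replicate 1 and 4599 and 1734 without layer A replicate 2. Against C they were 910 and 459 without layer C replicate 1, 2334 and 904 without layer A replicate 2, 2452 and 1333 without layer C replicate 2, and 5775 and 3965 without layer B replicate 3. Between B and C, 4 were higher and 13 lower in B without layer B replicate 3, 3 and 7 with no filter beyond 1 count, 29 and 101 by DESeq2, and 2 and 2 with the highest transcript of each gene. Counts summed by gene tested fewer features and gave 2196 and 1371 against B and 1600 and 1023 against C.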
